A study of Homo sapiens with 6 samples.

Results

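The 9 genes described here are the Sprouty genes SPRY1, SPRY2 and SPRY4, the SPRED genes SPRED1, SPRED2 and SPRED3, and the ETS transcription factor genes ETV1, ETV4 and ETV5 of the PEA3 group. They were taken by gene name from a table of 33539 genes, and each name matched 1 row. Poly(A) RNA was sequenced from the human line 8505C, which was established from an anaplastic thyroid carcinoma, 24 h after treatment with an siRNA against POLR1F (siPOLR1F, 3 libraries) or with a control siRNA (NC, 3 libraries). POLR1F encodes a subunit of RNA polymerase I, which transcribes the ribosomal RNA genes. By the labels the groups differ only in the siRNA, and all results come from this single line. The labels give neither the siRNA sequences nor whether the 3 libraries of a group come from separate cultures. P-values therefore reflect the scatter of the libraries, and that scatter may be technical.

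Sprouty and SPRED proteins restrain signalling from receptor tyrosine kinases to the MAP kinase ERK, and ERK activity in turn raises transcription of several of their genes, which makes a feedback loop. ETV1, ETV4 and ETV5 are transcribed in response to the same pathway and carry its signal to target genes, and the repressor capicua (CIC) holds PEA3-group genes down until ERK inactivates it. Because their mRNA follows ERK activity, genes of these families are used in transcriptional scores of the pathway. In thyroid carcinoma the pathway is often activated by mutation, and 8505C cells are known to carry an activating BRAF mutation.

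Only SPRY2 passed the test between siPOLR1F and NC, with a level 1.30 times that of NC (95% interval 1.15 to 1.47; edgeR quasi-likelihood adjusted p = 0.0135). SPRY4 and SPRED2 were at 1.32 and 1.12 times the NC level, but their adjusted p-values of 0.0967 and 0.0554 missed the threshold of 0.05. The remaining 6 genes, among them all 3 ETV genes, had intervals that included no change. All 9 members passed the filter on low values, a mean FPKM of at least 0.5 (a count scaled to gene length and library size). Of the 9, 1 was called higher and 0 lower by edgeR, against 10.3% of all 13564 genes tested called higher and 6.94% called lower, 17.2% in all. At an unadjusted p below 0.05, 3 members were higher and 0 lower, against 17.6% and 15.4% of all genes tested. DESeq2 also called 3 members higher and 0 lower, against 13.1% and 9.92%. The FPKM of the groups did not overlap in 3 of 9 members, SPRY2, SPRED1 and SPRED2, against 37.9% of all genes tested. Shares near these backgrounds are no result about the members as a group.

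The libraries held between 60576788 and 63038378 counts. The targeted gene POLR1F was at 1.67 ± 0.368 FPKM in siPOLR1F and 8.28 ± 0.592 FPKM in NC (SD, n = 3 each), with no overlap (edgeR adjusted p = 9.76e-05). Of the thyroid lineage genes NKX2-1, PAX8, FOXE1 and HHEX, NKX2-1 supplied most of the summed level, which was 30.9 to 34.3 FPKM in siPOLR1F and 47.2 to 52.8 FPKM in NC. PAX8 stayed at or below 0.777 FPKM, and of the thyroid function genes TG, TSHR and SLC5A5 were below 0.1 FPKM in every library and DIO1 reached 0.132 FPKM in siPOLR1F replicate 2. Among markers of other cells, PTPRC of blood cells and DCN and PDGFRA of fibroblasts were below 0.1 FPKM in every library. With the third fibroblast gene, LUM, the fibroblast sum was 0.218 to 0.371 FPKM in siPOLR1F and 0.212 to 0.592 FPKM in NC. The summed level of PTPRC, CD68 and LYZ, most of it CD68, was 12.0 to 18.5 FPKM in siPOLR1F and 9.73 to 14.5 FPKM in NC. The summed level of PECAM1, VWF and CDH5, markers of endothelium, was 2.36 to 4.79 FPKM in siPOLR1F and 5.62 to 6.75 FPKM in NC. Of the markers tested, NKX2-1 (log2 fold change -0.71, edgeR adjusted p = 4.35e-04) and CDH5 (-1.04, adjusted p = 0.00308) were called lower in siPOLR1F. PAX8, HHEX, CD68 and LYZ were not called, and 6.94% of all genes tested were called lower. The part of these marker levels in the results was not tested. Both libraries numbered 3 stood apart for some low genes. SPP1 was at 0.0664 FPKM in siPOLR1F replicate 3 and 0.0466 in NC replicate 3, against 1.37 to 1.76 FPKM in the other 4 libraries, and PAX8 was at 0.218 and 0.256 FPKM there, against 0.596 to 0.777. With both left out, an alternative chosen after seeing the data, 328 genes were called higher and 146 lower, and the calls lost among the genes named are given with each group of genes.

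RefSeq promoter sequences (GRCh38.p14), each with 250 bases before and 50 bases after a start site, were at hand for 7 of the 9 members, 17 promoters in all. No promoter was at hand for ETV4 or ETV5, so neither was searched for the letter runs below. The promoters of SPRY2 and SPRY4 are shown because these Sprouty genes had the largest positive fold changes of the members. The SPRY2 promoter shown, number 1 of 3 listed for the gene, lies at chr13:80341077-80341376 and the SPRY4 promoter, the single one listed, at chr5:142324198-142324497, both on the minus strand; capitals mark the 50 bases from the start site on.
SPRY2: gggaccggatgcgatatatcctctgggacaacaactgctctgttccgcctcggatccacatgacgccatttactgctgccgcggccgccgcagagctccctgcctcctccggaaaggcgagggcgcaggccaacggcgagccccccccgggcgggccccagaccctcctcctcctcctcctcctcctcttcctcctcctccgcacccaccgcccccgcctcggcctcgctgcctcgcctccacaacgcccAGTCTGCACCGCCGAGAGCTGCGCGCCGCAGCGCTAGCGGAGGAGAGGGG
SPRY4: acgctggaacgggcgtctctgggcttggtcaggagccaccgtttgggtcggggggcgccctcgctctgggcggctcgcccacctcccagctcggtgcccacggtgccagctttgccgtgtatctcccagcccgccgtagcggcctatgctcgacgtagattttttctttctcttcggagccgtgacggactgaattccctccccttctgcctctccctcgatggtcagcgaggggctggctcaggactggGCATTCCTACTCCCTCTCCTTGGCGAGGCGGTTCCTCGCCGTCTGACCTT
The SPRY2 stretch was 71% G or C and the SPRY4 stretch 65%. None of the 3 SPRY2 promoters nor the SPRY4 promoter held any of 5 letter runs searched on both strands, which were CCGGAAG, a form of the ETS site, TGAATGA and TGAATGG, forms of the capicua site, TGACTCA, the AP-1 site, and TGACGTC, a form of the cyclic AMP response element. Of 35116 promoters of that length in the RefSeq table, 10.3%, 4.01%, 3.20%, 4.95% and 3.45% held these runs in that order.

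Among the 7 members searched, which leave out ETV4 and ETV5, capicua letters stood in promoters of ETV1 and SPRED3. The cyclic AMP letters stood in a promoter of SPRED2. These 30-base windows are shown because the repressor capicua is known to act on PEA3-group genes and the SPRED2 value lay nearest the threshold; capitals mark the match.
ETV1: ccggaattttgTGAATGGagacgaaaggtg
SPRED3, upstream match: cttgatttttgTGAATGAaatgctctctgg
SPRED3, downstream match: tgcatccggtcTCATTCAtaaatccgggaa
SPRED2: gccgctgggaaGACGTCAtcgcttccgccc
The ETV1 window is at chr7:13991532-13991561 on the minus strand, the SPRED3 windows are at chr19:38389588-38389617 and chr19:38389746-38389775 on the plus strand, and the SPRED2 window is at chr2:65432553-65432582 on the minus strand. The ETV1 match begins 125 bases before its start site, in 1 of 6 promoters listed for the gene, and the SPRED3 matches begin 192 and 34 bases before theirs, in 1 of 2 promoters. The SPRED2 match begins 28 bases after its start site, in 1 of 2 promoters. The same SPRED3 promoter held an AP-1 match, another SPRED2 promoter held an AP-1 match, and 1 of 2 SPRY1 promoters held the ETS letters. A match is a description of letters and not a bound site. Neither ETV1 nor SPRED3 passed the test, as set out below.

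Among the Sprouty genes, SPRY2 was the most abundant. SPRY2 (ENSG00000136158, GRCh38 chromosome 13, 80335976 to 80341126, minus strand) encodes an inhibitor that binds the adaptor GRB2 and the ubiquitin ligase CBL. Its level was 15.6, 17.0 and 17.1 FPKM in the siPOLR1F libraries and 11.6, 13.3 and 13.6 FPKM in the NC libraries. Each siPOLR1F library was above each NC library, which held for 18.9% of all genes tested. The counts behind these values were 3469, 3848 and 3812 in siPOLR1F and 2626, 2889 and 3027 in NC, and the log2 fold change was 0.38 (SE 0.08). With 3 against 3 libraries an exact permutation test of a single gene cannot give a two-sided p below 0.1.

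The SPRY2 call depended on the libraries kept and on the filter on low values. Without siPOLR1F replicate 2 the edgeR adjusted p was 0.0514, without replicate 3 it was 0.0566, and with both libraries numbered 3 left out it was 0.0891. The log2 fold change in these 3 cases was 0.36, 0.35 and 0.40, so the size of the difference stayed close to 0.38. Leaving out NC replicate 1, the lowest NC library for SPRY2, gave 0.31 with an adjusted p of 0.0233. With all libraries but without the filter, the edgeR adjusted p was 0.0570 and the log2 fold change 0.39. Over all 15 alternatives the adjusted p lay between 1.51e-04 and 0.0891, and SPRY2 was called in 11 of them.

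SPRY4 (ENSG00000187678, chromosome 5, 142310427 to 142326455, minus strand) encodes another Sprouty inhibitor of RAS to ERK signalling. It was at 8.39, 8.95 and 10.1 FPKM in siPOLR1F and at 5.41, 8.50 and 7.01 FPKM in NC. The lowest siPOLR1F library lay just below the highest NC library, NC replicate 2, so the groups overlapped by FPKM, while on TMM-scaled CPM they were at 62.3 and 62.2 and just cleared each other. The log2 fold change was 0.40 (SE 0.15; 95% interval 0.07 to 0.73), about as large as that of SPRY2 but less precise. Over the 3 NC libraries SPRY4 spanned 0.64 on the log2 scale of library-scaled counts (CPM), a wider span than 89.2% of all genes tested, whereas SPRY2 spanned 0.21. Without NC replicate 2 the log2 fold change was 0.57 and the edgeR adjusted p 0.0254, and without NC replicate 1 they were 0.24 and 0.170. SPRY4 also passed with DESeq2 (adjusted p = 0.0155), and its alternatives reached an adjusted p of 0.365.

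SPRY1 (ENSG00000164056, chromosome 4, 123396795 to 123403755, plus strand) was the least abundant of the 3 Sprouty genes. It was at 2.85, 2.69 and 2.68 FPKM in siPOLR1F and at 2.69, 2.82 and 3.62 FPKM in NC. NC replicate 3 alone lay clearly above the rest, and the groups overlapped. The log2 fold change was -0.15 (95% interval -0.44 to 0.15; edgeR adjusted p = 0.466), and it was -0.23 without NC replicate 1, -0.00748 without NC replicate 3 and 0.01 with both libraries numbered 3 left out. The summed level of the 3 Sprouty genes was 26.8, 28.7 and 29.9 FPKM in siPOLR1F and 19.7, 24.6 and 24.2 FPKM in NC. SPRY2 supplied most of it. These sums did not overlap, as was so for 37.9% of all single genes tested. An exact permutation test (two-sided) of the sum gave p = 0.1, its lower limit in this design.

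**Figure D1:**
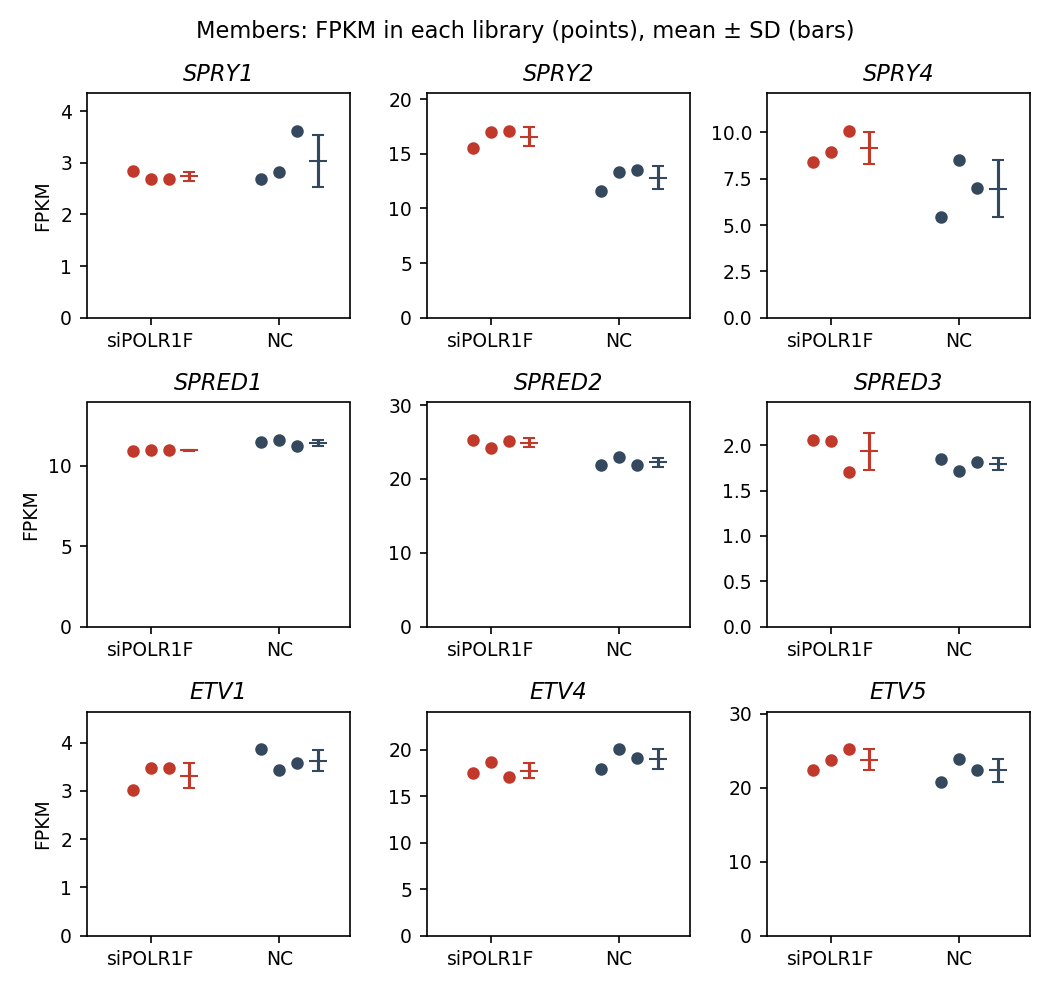
FPKM of each member in every library (points, y axis from 0), with the mean and SD beside them; siPOLR1F is on the left of each panel and NC on the right. SPRY2 is the member whose siPOLR1F libraries (15.6 to 17.1 FPKM) stand furthest clear of its NC libraries (11.6 to 13.6 FPKM), while SPRY4 shows the widest scatter in NC (5.41 to 8.50 FPKM).

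The SPRED genes differed less between the groups. SPRED2 (ENSG00000198369, chromosome 2, 65310851 to 65432599, minus strand) encodes a SPRED protein, a class that brings the RAS-inactivating protein neurofibromin to the membrane. It was at 25.3, 24.2 and 25.2 FPKM in siPOLR1F and at 21.9, 23.0 and 21.9 FPKM in NC. The groups did not overlap, yet the log2 fold change of 0.17 (SE 0.05; 95% interval 0.05 to 0.28) did not pass edgeR (adjusted p = 0.0554). It passed with DESeq2 (adjusted p = 0.0296), and over all its alternatives the adjusted p reached 0.329.

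SPRED1 (ENSG00000166068, chromosome 15, 38252836 to 38357249, plus strand), whose loss causes Legius syndrome, was at 10.9, 11.0 and 11.0 FPKM in siPOLR1F and at 11.4, 11.6 and 11.2 FPKM in NC. Each siPOLR1F library was lower than each NC library, as in 19.0% of all genes tested, but the difference was small, and the log2 fold change was -0.05 (95% interval -0.17 to 0.06; edgeR adjusted p = 0.504). SPRED3 (ENSG00000188766, chromosome 19, 38388421 to 38399587, plus strand) was the least abundant member. It was at 2.06, 2.04 and 1.70 FPKM in siPOLR1F and at 1.85, 1.72 and 1.81 FPKM in NC, with overlap. Its log2 fold change was 0.11 (95% interval -0.14 to 0.37; edgeR adjusted p = 0.515), and it was 0.06 without siPOLR1F replicate 1 and 0.20 without siPOLR1F replicate 3. The summed level of the 3 SPRED genes was 38.3, 37.2 and 37.9 FPKM in siPOLR1F and 35.2, 36.3 and 34.9 FPKM in NC. SPRED2 supplied most of each sum. The SPRED sums did not overlap, as was so for 37.9% of all single genes tested. Their exact permutation test (two-sided) also gave p = 0.1, the lower limit in this design.

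None of the PEA3-group genes passed the test. ETV5 (ENSG00000244405, chromosome 3, 186046314 to 186110318, minus strand) was the most abundant of them, with 22.4, 23.8 and 25.3 FPKM in siPOLR1F and 20.8, 23.9 and 22.4 FPKM in NC. The groups overlapped, and the log2 fold change was 0.10 (95% interval -0.05 to 0.25; edgeR adjusted p = 0.344). It moved with the libraries kept, to 0.05 without NC replicate 1 or siPOLR1F replicate 3 and 0.15 without NC replicate 2. ETV4 (ENSG00000175832, chromosome 17, 43527846 to 43579620, minus strand) was at 17.5, 18.7 and 17.1 FPKM in siPOLR1F and at 18.0, 20.1 and 19.1 FPKM in NC. Its log2 fold change was -0.09 (95% interval -0.24 to 0.05; edgeR adjusted p = 0.349), so ETV4 and ETV5 had estimates of opposite sign, neither set apart from no change. Without NC replicate 2 the ETV4 value was -0.05. The ETV4 locus overlaps DHX8 on the opposite strand, a gene with 113% of its mean count, and no source used here states a strand setting, so reads of this pair may have been split.

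ETV1 (ENSG00000006468, chromosome 7, 13891229 to 13991425, minus strand), an oncogenic driver in some sarcomas and prostate cancers, was at a much lower level. It had 3.01, 3.47 and 3.47 FPKM in siPOLR1F and 3.87, 3.43 and 3.58 FPKM in NC, with overlap. The log2 fold change was -0.12 (95% interval -0.31 to 0.07; edgeR adjusted p = 0.350), and it was -0.06 without siPOLR1F replicate 1 and -0.07 without NC replicate 1. The summed level of the 3 ETV genes was 42.9, 45.9 and 45.9 FPKM in siPOLR1F and 42.7, 47.4 and 45.1 FPKM in NC, with means of 44.9 ± 1.73 and 45.1 ± 2.37 FPKM (SD, n = 3 each) and full overlap.

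In 8 of the 9 members the 95% interval lay within 1.5-fold of no change in either direction; the exception was SPRY4, whose interval reached 1.66-fold. These intervals are not adjusted for the number of genes. Estimates were positive for 5 members and negative for 4, and the median log2 fold change of the 9 was 0.10, against -0.01 over all genes tested.

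**Figure D2:**
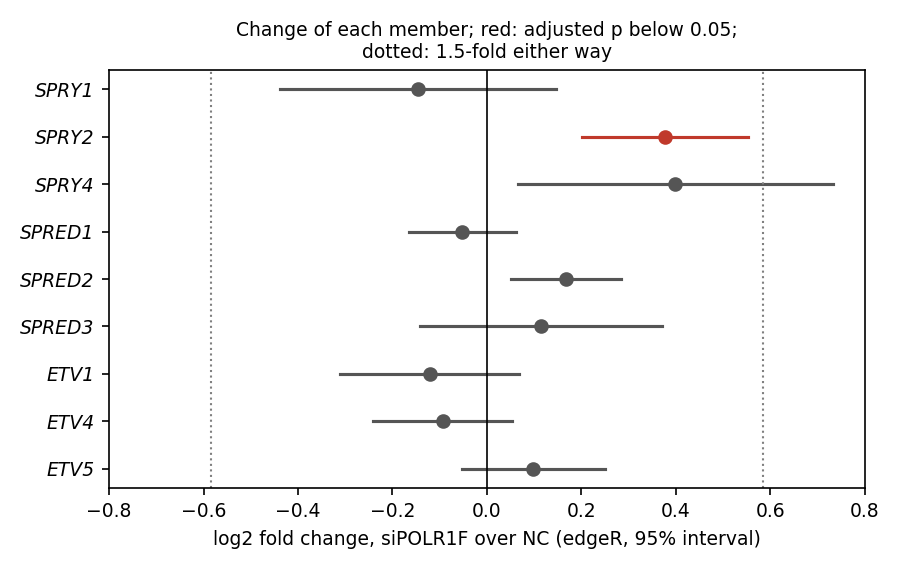
Log2 fold change of each member, siPOLR1F over NC, with its 95% interval from the edgeR fit (x axis); the dotted lines mark 1.5-fold either way. SPRY2 (0.38) is the single member past the adjusted p of 0.05, the intervals of SPRY4 and SPRED2 also clear 0 before adjustment, and SPRY4 alone crosses a dotted line.

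The order of the members' FPKM was much the same in both groups. In siPOLR1F the means ran from SPRED2 (24.9) and ETV5 (23.8) through ETV4 (17.8), SPRY2 (16.6), SPRED1 (11.0) and SPRY4 (9.14) to ETV1 (3.32), SPRY1 (2.74) and SPRED3 (1.93). In NC they ran from ETV5 (22.4) and SPRED2 (22.3) through ETV4 (19.1), SPRY2 (12.8), SPRED1 (11.4) and SPRY4 (6.97) to ETV1 (3.63), SPRY1 (3.04) and SPRED3 (1.79). SPRED2 and ETV5 overlapped in both groups and cannot be ordered, and ETV1 overlapped SPRY1 in NC. The other neighbours did not overlap, although 2 pairs nearly met. ETV4 and SPRY2 came within 0.1 FPKM of each other in siPOLR1F, at 17.1 for the lowest ETV4 and the highest SPRY2 library. In NC the lowest SPRY2 library (11.602 FPKM) was almost level with the highest SPRED1 library (11.598 FPKM). The highest member mean was 12.9 times the lowest in siPOLR1F and 12.5 times in NC.

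Within each family, the mean shares of summed FPKM differed a little between the groups. SPRED2 made up 65.9% ± 0.764 of the SPRED sum in siPOLR1F and 62.8% ± 0.539 in NC (SD, n = 3 each), and SPRED1 29.0% ± 0.461 and 32.2% ± 0.294. For both genes the groups did not overlap. ETV5 made up 53.0% ± 1.79 of the ETV sum in siPOLR1F and 49.6% ± 0.765 in NC, and ETV4 39.6% ± 1.94 and 42.3% ± 0.168, again with no overlap. SPRY1 took 9.65% ± 0.851 of the SPRY sum in siPOLR1F and 13.4% ± 1.78 in NC. The shares of SPRY2, SPRY4, SPRED3 and ETV1 overlapped between the groups. For each of the 5 shares that did not overlap, an exact permutation test (two-sided) gave p = 0.1, its lower limit in this design, so none can pass a threshold of 0.05. Shares within a family also depend on each other. With both libraries numbered 3 left out (n = 2 each), SPRED2 made up 65.6% in siPOLR1F and 62.8% in NC, ETV5 52.0% and 49.6%, and SPRY1 9.99% and 12.6%. The ETV4 shares were then 40.7% in siPOLR1F and 42.3% in NC, a smaller difference than with all libraries.

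**Figure D3:**
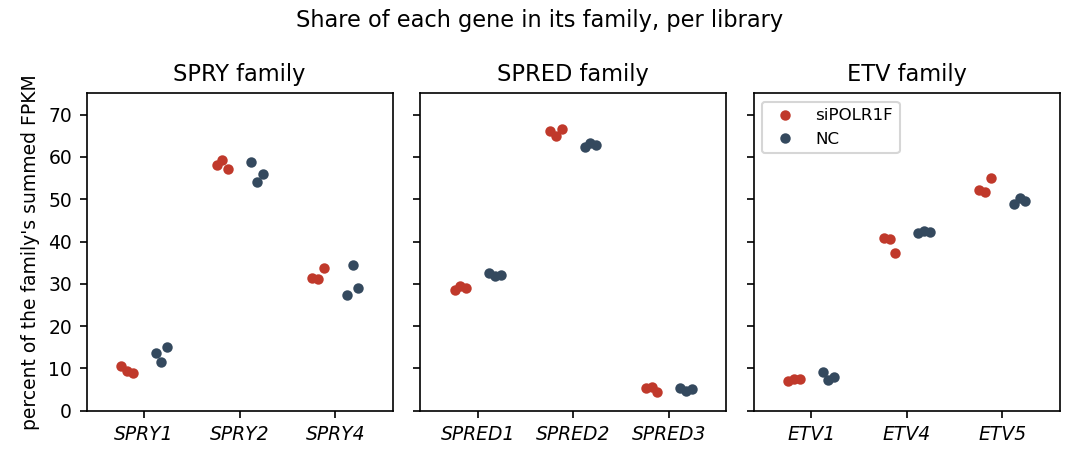
Share of each gene in the summed FPKM of its family (y axis, percent), with 1 point per library, siPOLR1F left of NC for each gene. SPRED2 (65.9% against 62.8%) and ETV5 (53.0% against 49.6%) took slightly larger shares in siPOLR1F, and SPRED1, ETV4 and SPRY1 smaller ones. For each of these genes an exact permutation test (two-sided) gave p = 0.1, its lower limit in this design, and shares within a family depend on each other.

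With 9 members and 3 libraries per group, some members must share their lowest library, so sharing alone is no result. On TMM-scaled CPM, NC replicate 1 was the lowest NC library for 5 of the 9 members, namely SPRY1, SPRY2, SPRY4, ETV4 and ETV5, as it was for 37.9% of all genes tested. Among the siPOLR1F libraries, replicate 1 was the lowest for SPRY2, SPRY4, ETV1 and ETV5, and the share over all genes tested was not computed. The profile most like that of SPRED2, which had the highest mean FPKM over the 6 libraries although it cannot be ordered against ETV5, was that of AJAP1, with a Pearson r of 0.998 over the 6 libraries. STEEP1 (0.997), DDAH1 (0.995), SOWAHC (0.995) and MTMR2 (0.995) followed. These 6 libraries fall into 2 groups, so r reflects the group difference as well, and AJAP1, STEEP1, DDAH1 and SOWAHC were called higher in siPOLR1F while MTMR2 was not (edgeR adjusted p = 0.0821). The STEEP1 call was lost without siPOLR1F replicate 1 or 3 or NC replicate 1 or 3 (0.0721 to 0.102). With both libraries numbered 3 left out, AJAP1 passed (edgeR adjusted p = 0.0441), and STEEP1 (0.228), DDAH1 (0.122) and SOWAHC (0.0860) did not.

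Of 17 tested among the other genes used in scores of ERK output, 4 were called lower and 0 higher by edgeR, against 6.94% and 10.3% of all genes tested, with a median log2 fold change of -0.07. At an unadjusted p below 0.05, 6 were lower and 3 higher, against 15.4% and 17.6% of all genes tested. DESeq2 called 5 lower and 1 higher, against 9.92% and 13.1%. This list and those that follow were chosen with earlier results of these data known. Their counts are therefore a description and no test against the shares over all genes. TRIB2, a pseudokinase, was at 2.28 ± 0.0132 FPKM in siPOLR1F and 3.58 ± 0.102 in NC (SD, n = 3 each), and its log2 fold change was -0.64 with an edgeR adjusted p of 0.00191. The ephrin receptor gene EPHA4 fell by 0.51 on the log2 scale, the protease inhibitor gene SERPINB1 by 0.45 and the calcium-binding protein gene S100A6 by 0.26. EPHA4 did not pass without siPOLR1F replicate 1 or 2 or NC replicate 3 (edgeR adjusted p from 0.0556 to 0.0606), and SERPINB1 and S100A6 passed only with NC replicate 2 as the library left out (otherwise 0.0558 to 0.101). With both libraries numbered 3 left out none of the 4 passed, with edgeR adjusted p-values of 0.0538 for TRIB2, 0.106 for EPHA4, 0.229 for SERPINB1 and 0.198 for S100A6. DUSP6, DUSP4, PHLDA1 and CCND1 of the same list, named here after their values were seen, did not pass the main edgeR fit with all libraries. DUSP6, a phosphatase of ERK, was at 12.9, 17.2 and 17.8 FPKM in siPOLR1F and at 13.5, 13.9 and 13.5 FPKM in NC (log2 fold change 0.23, edgeR adjusted p = 0.177). Its siPOLR1F replicate 1 lay below every NC library, and without it the log2 fold change was 0.36 and the adjusted p 0.0184, while without siPOLR1F replicate 3, or with both libraries numbered 3 left out, the log2 fold change was 0.15. The log2 fold change was 0.11 for DUSP4, another ERK phosphatase (0.04 without NC replicate 1 and 0.08 without siPOLR1F replicate 3), 0.18 for PHLDA1 (edgeR adjusted p = 0.0507, or 0.0461 without NC replicate 1) and -0.22 for the cyclin gene CCND1 (-0.09 without NC replicate 2). With all libraries, PHLDA1 passed in DESeq2 (adjusted p = 0.0212). It also passed in edgeR with DESeq2 size factors (adjusted p = 0.0493) and in edgeR with the replicate number as a block (0.0443).

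Upstream of the members, genes of fibroblast growth factor (FGF) signalling included rises and falls. Of 9 tested, 2 rose, 1 fell and 6 did not pass, against 10.3% of all genes tested called higher by edgeR and 6.94% lower. Unadjusted p-values below 0.05 gave 4 higher and 2 lower, against 17.6% and 15.4%, and DESeq2 gave 3 and 2, against 13.1% and 9.92%. FGFR1, a receptor kinase, was at 8.09 ± 0.330 FPKM in siPOLR1F and 10.2 ± 0.520 in NC (SD, n = 3 each; log2 fold change -0.32, edgeR adjusted p = 0.00716). FGFRL1, a receptor without a kinase domain, was at 19.5 ± 0.0685 FPKM in siPOLR1F and 14.4 ± 1.13 in NC (0.44; adjusted p = 0.00362). The ligand gene FGF5 rose by 0.58 on the log2 scale (edgeR adjusted p = 0.00548). The receptor gene FGFR3, named after its values were seen, had a log2 fold change of 0.59 but missed the threshold (edgeR adjusted p = 0.0566). Its mean level was low, at 0.861 FPKM in siPOLR1F and 0.571 FPKM in NC. Without both libraries numbered 3, FGFR1 (edgeR adjusted p = 0.0724), FGFRL1 (0.0530) and FGF5 (0.0728) did not pass. FGFR1 overlaps LETM2, which has 8.43% of its count.

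Of 17 genes whose products bind, modify or act through Sprouty and SPRED proteins, 4 rose, 2 fell and 11 did not pass. Among all genes tested, edgeR called 10.3% higher and 6.94% lower. Unadjusted p-values below 0.05 gave 6 higher and 3 lower, against 17.6% and 15.4%, and DESeq2 gave 5 and 2, against 13.1% and 9.92%. RASA1, a GTPase-activating protein that inactivates RAS, was at 5.98 ± 0.542 FPKM in siPOLR1F and 10.2 ± 1.60 in NC (SD, n = 3 each; log2 fold change -0.76, edgeR adjusted p = 0.00473). CAV1, the main protein of caveolae and a binding partner of Sprouty proteins, was at 139 ± 2.75 FPKM in siPOLR1F and 181 ± 6.19 in NC (-0.38; adjusted p = 0.00155). The ubiquitin ligase gene SIAH2, whose product degrades Sprouty proteins, rose by 0.50, and the phosphatase gene PTPN11, whose product activates RAS signalling, rose by 0.34. The remaining 2 of those that rose, named after their values were seen, were TESK1 (0.42) and BRAF (0.34). TESK1 did not pass without siPOLR1F replicate 2 or 3 or NC replicate 1 or 2 (edgeR adjusted p from 0.0652 to 0.107), and BRAF passed only with siPOLR1F replicate 3 as the library left out (otherwise 0.0880 to 0.121). SIAH2 did not pass without siPOLR1F replicate 3 (edgeR adjusted p = 0.0538), nor PTPN11 without siPOLR1F replicate 1 or 3 or NC replicate 3 (0.0513 to 0.0563). With both libraries numbered 3 left out, RASA1 and CAV1 passed (edgeR adjusted p = 0.0354 and 0.0244), and SIAH2 (0.0871), PTPN11 (0.128), TESK1 (0.120) and BRAF (0.0725) did not. NF1, which encodes neurofibromin, was at 2.52 ± 0.132 FPKM in siPOLR1F and 2.48 ± 0.0733 in NC. RASA1 overlaps CCNH (119% of its count) and PTPN11 overlaps RPL6 (669%), both on the opposite strand, so reads may be divided.

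Of 9 genes listed here as repressors of PEA3-group genes or as controls of the turnover of their proteins, 3 rose, 0 fell and 6 did not pass. These edgeR calls stand beside 10.3% of all genes tested called higher and 6.94% lower. Unadjusted p-values below 0.05 also gave 3 and 0, against 17.6% and 15.4%, and so did DESeq2, against 13.1% and 9.92%. With limma on log2(FPKM + 1) the calls were 1 and 0, against 1194 and 883 of 13564 genes. ATXN1L and ATXN1 encode partners that stabilise capicua. ATXN1L was at 6.81 ± 0.0725 FPKM in siPOLR1F and 4.79 ± 0.356 in NC (SD, n = 3 each; log2 fold change 0.51, edgeR adjusted p = 0.00196), and ATXN1 rose by 0.39 (adjusted p = 0.0142). The ETS repressor gene ETV3 rose by 0.36 (edgeR adjusted p = 0.0360). Whether ETV3 acts on PEA3-group genes was not examined here. CIC itself was at 6.89 ± 0.234 FPKM in siPOLR1F and 6.26 ± 0.430 in NC and did not pass (edgeR adjusted p = 0.163), nor did COP1, the ubiquitin ligase of PEA3-group proteins (0.268). ATXN1 did not pass without siPOLR1F replicate 1 (adjusted p = 0.0504), and ETV3 not without siPOLR1F replicate 1 or 3 or NC replicate 1 or 2 (0.0557 to 0.120). Without both libraries numbered 3, ATXN1L passed (edgeR adjusted p = 0.0431), and ATXN1 (0.0631) and ETV3 (0.145) did not. ATXN1L overlaps IST1 on the same strand (203% of its count) and AP1G1 (162%), so its reads are uncertain.

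Other ETS factors and targets of the PEA3 group moved in both directions. Beside the counts of both lists, edgeR called 10.3% of all genes tested higher and 6.94% lower. Of 10 other ETS genes tested, ELK4, a partner of serum response factor, rose by 0.64 (edgeR adjusted p = 0.00359), while FLI1 fell by 0.21 and ELF4 by 0.34. FLI1 passed only with NC replicate 1 as the library left out (otherwise adjusted p from 0.0932 to 0.110), and ELF4 only without siPOLR1F replicate 2 or NC replicate 1 (otherwise 0.105 to 0.127). Without both libraries numbered 3, ELK4 passed (edgeR adjusted p = 0.0260), and FLI1 (0.248) and ELF4 (0.268) did not. Of 11 reported PEA3-group targets tested, 1 rose, 1 fell and 9 did not pass. MMP1, a collagenase, was at 1807 ± 78.8 FPKM in siPOLR1F and 1196 ± 61.9 in NC (SD, n = 3 each; log2 fold change 0.60, edgeR adjusted p = 2.45e-04), and the corepressor gene RCOR1 fell by 0.47. Both passed with both libraries numbered 3 left out (edgeR adjusted p = 0.00347 and 0.0444).

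**Figure D4:**
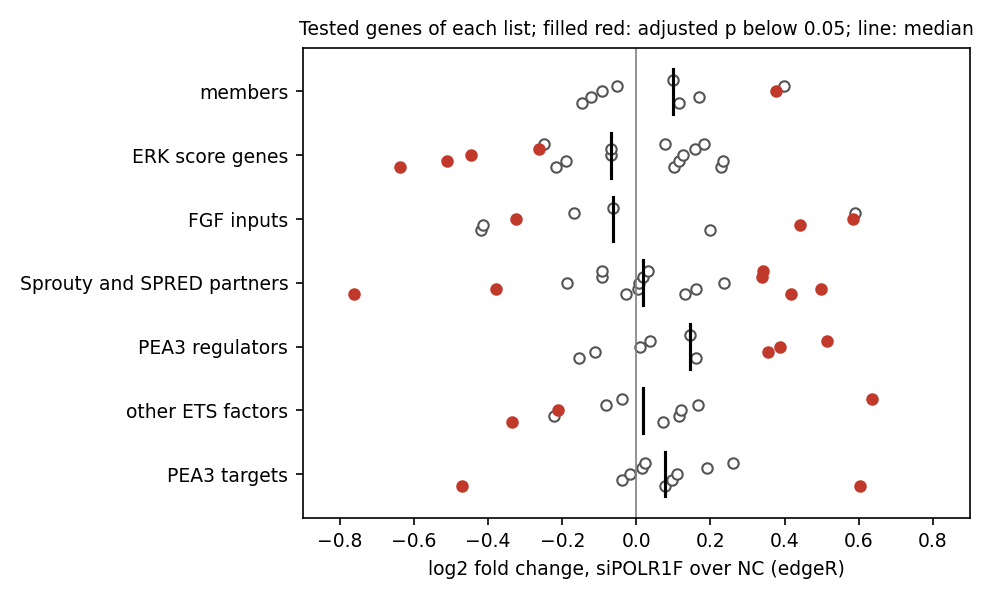
Log2 fold change, siPOLR1F over NC (x axis), of every tested gene of the members and of 6 related lists; filled red points passed the edgeR adjusted p of 0.05 and black lines are medians. Calls lie on both sides of 0 in 4 of the lists, all 4 calls among the ERK score genes lie below 0, and all 3 among the PEA3 regulators lie above it. Of all genes tested, 10.3% were called higher and 6.94% lower. The lists were chosen with earlier results of these data known, so their counts are no test against these shares.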

How the data were processed

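Poly(A) RNA of 6 libraries was analysed, 3 siPOLR1F and 3 NC, grouped by their titles. The authors deposited 1 table holding, for each gene, a raw count and an FPKM in every library. The submitters' processing notes name GRCh38 (hg38), HISAT2, StringTie and fastp; tool versions, annotation and strand setting were not given in the sources used. Columns were matched by library name.

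Counts of the 13564 genes whose mean FPKM reached 0.5 were tested with edgeR 4.0.16 (TMM, glmQLFit, glmQLFTest, two-sided; R 4.3.3), and p-values were adjusted by Benjamini-Hochberg over all of them. The SE was the absolute log2 fold change divided by the square root of F. The fit was tested on simulated data. Levels and shares used the deposited FPKM. Alternatives were DESeq2 1.42.0, limma 3.58.1 on log2(FPKM + 1) and log2(FPKM + 0.1), other scalings and filters, a replicate block, and leaving libraries out. The members and lists were chosen with earlier results of these data known. In each list the text names up to 4 called genes with the smallest adjusted p. Motif matches were described, not tested.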

Additional observations from a re-analysis of the deposited data

How the results depend on the processing

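The number of members called higher was 1 with all libraries, 3 with DESeq2 (SPRY2, SPRY4 and SPRED2), 2 with the replicate block (SPRY2 and SPRY4), 0 in edgeR without a filter, where 33539 genes were adjusted together, and 0 with both libraries numbered 3 left out, an alternative chosen after seeing the data. Leaving out 1 library gave 0 to 2 members. None of the edgeR, DESeq2 or limma alternatives called a member lower.

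Over all genes, 1391 were called higher and 942 lower. Leaving out 1 library gave 730 to 1326 higher and 423 to 841 lower, edgeR without a filter gave 663 and 313, and leaving out both libraries numbered 3 gave 328 and 146. The SPRY1 log2 fold change turned to 0.0126 without both libraries numbered 3, against -0.15 with all. The difference in the SPRED3 share, 0.06 percentage points, ranged from -0.122 to 0.377 with 1 library left out, and was negative without siPOLR1F replicate 1 (-0.0653), siPOLR1F replicate 2 (-0.122) and NC replicate 2 (-0.100). The NF1 log2 fold change ranged from -0.00964 to 0.0706 with 1 library left out. Of the 19 list genes named by the rule, 6 passed with both libraries numbered 3 left out, namely CAV1, RASA1, ATXN1L, ELK4, MMP1 and RCOR1; that fit has fewer libraries. The causes were not tested.

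Samples share only a replicate number. Deviations of same-numbered libraries from their group means correlated across genes at 0.293, 0.0157 and 0.274. Libraries numbered 1 and 3 correlated best with their own number. For number 2 the value was near 0, and siPOLR1F replicate 2 with NC replicate 3 gave 0.00614. Deviations within a group sum to 0, so these values depend on each other. With the replicate block 1517 genes were called higher and 1125 lower, SPRY4 had an adjusted p of 0.0320 and SPRY2 of 0.00682; no other call among the members changed.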
